A study of Rattus norvegicus with 12 samples.

Results

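The fibrillar collagens described here are 8 rat genes, Col1a1, Col1a2, Col2a1, Col3a1, Col5a1, Col5a2, Col5a3 and Col11a1, out of 14218 that the array's annotation names singly, read by 16 of its 31099 Affymetrix probe sets. A probe set was taken where the array's annotation gave it a single gene symbol and that symbol was one of the 8. Of the 16 probe sets, 12 passed a filter on low signals, and these belonged to 7 genes. The 3 probe sets of Col2a1 and 1 of the 3 of Col11a1 did not pass. Each gene is represented by its brightest probe set over all arrays, called its main probe set, and the others are given where they differ.

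RNA of Wistar rats was hybridised to 12 arrays, in 4 groups of 3 by sample title: aorta and valve of newborns, and aorta and valve of adults. Aorta means the proximal segment of the vessel, and valve means the aortic and pulmonary semilunar valves together. Newborn tissue was taken in the first 24 h of life, and adult tissue is labelled as coming from male rats of unstated age. No treatment, transgene or mutation is named, and no label says that the 3 samples of a group were separate animals, so each p-value measures the spread between these samples, which may be technical. The comparisons ask how each gene differs between birth and adulthood in each tissue and between the tissues at each age.

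Fibrillar collagens are secreted as procollagens of 3 alpha chains wound into a triple helix, and after their end pieces are cut off they assemble into banded fibrils that carry tension. Type I (Col1a1 and Col1a2 chains) and type III (Col3a1) make up the bulk of fibrils in the vessel wall and the valve leaflet. Type V (Col5a1, Col5a2, Col5a3) and type XI (Col11a1) are minor chains that lie inside fibrils and limit their diameter, and type II (Col2a1) is the main collagen of cartilage. Type XI is best known from cartilage, where it is built into type II fibrils.

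The promoters of Col1a2 and Col11a1 are shown because these genes share a short promoter element and differ in their calls: Col11a1 fell with age in both tissues, and Col1a2 passed the test in no comparison of all 12 arrays, as was so for Col3a1 and Col5a1. Of the 8 genes, 5 had an entry in the RefSeq promoter table (assembly GRCr8), and in 3 of these, Col1a2, Col5a2 and Col11a1, the window began at the gene's annotated start. The 250 bases before that start were searched on both strands for CCAAT, the box bound by the factor NF-Y, and for TATAA, the core of a TATA box. CCAAT occurred in the windows of Col1a2 and Col11a1 and not in that of Col5a2, against 34.0% of 33469 promoters. TATAA occurred in that of Col1a2, against 24.0%. The match is in capitals in the lines below, and ATTGG is CCAAT read from the opposite strand.
Col1a2, chr4:33518307-33518370, plus strand, match 221 bases before the start: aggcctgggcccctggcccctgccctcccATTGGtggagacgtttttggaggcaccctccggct
Col1a2, chr4:33518357-33518421, plus strand, match 170 bases before the start: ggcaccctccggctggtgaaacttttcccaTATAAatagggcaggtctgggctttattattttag
Col11a1, chr2:204508886-204508940, plus strand, match 230 bases before the start: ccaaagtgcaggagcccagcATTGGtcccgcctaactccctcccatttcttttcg
Col11a1, chr2:204509029-204509093, plus strand, match 77 bases before the start: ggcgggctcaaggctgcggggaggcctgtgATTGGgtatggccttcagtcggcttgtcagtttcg
These are letter matches in a fixed window, and binding was not measured. No link between the matches and the calls was tested, and the age differences of the 2 genes were not compared with each other.

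Several facts of the arrays touch the values below. For the 6 samples titled adult aorta or neonatal valve, the description and tissue fields name each other's group, while title and source name match. Igf2, a fetal growth factor gene, read 6189 to 20768 on arrays titled neonatal and 184 to 879 on those titled adult. Xist, the RNA of the inactive X chromosome, read at most 297 in the aorta and 10998 to 18362 in the valve, and the Y-linked Eif2s3y read 1379 to 2557 and 1.39 to 134. The adult valve arrays thus go against their label of male, and tissue and sex cannot be told apart. Adult aorta 1 had 11 of 11 skeletal muscle markers and 10 of 10 squamous epithelium markers above the median signal, with summed signals of 227331 and 177065, against 12847 to 18331 and 966 to 1025 on adult aorta 2 and 3. Its 9 smooth muscle markers summed to 36398, against 120882 to 156488 on those 2 arrays. The squamous sum also reached 84430 on neonatal aorta 2, and thymocyte markers summed to 37935 on neonatal valve 3. Added control RNAs were absent on neonatal aorta 2 and 3, where their probe sets read 5.82 to 54.6, which gives the level of an RNA that is not there. No value of the 85 marker genes was 0. The ratio of 3' to 5' signal of beta-actin, a sign of transcript coverage, was 1.40 to 2.59 in the 6 aorta samples, 7.24 to 8.84 in neonatal valve and 10.7 to 14 in adult valve. That of GAPDH was 0.917 to 1.13, 1.97 to 2.60 and 2.78 to 5.13, so both ratios also separated the valve groups by age, and their part in the valve age differences was not tested. As the samples are whole tissue, fewer cells of a type and less RNA per cell cannot be told apart.

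Of the chains of types I and III, Col1a1 fell with age in the valve, and none of the 3 passed in the aorta. Col1a1, the chain present in 2 copies of most type I molecules, had signals of 22106, 21337 and 24449 on neonatal aorta arrays 1, 2 and 3, and of 755, 7999 and 9607 on adult aorta arrays. On valve arrays it read 8337, 10834 and 7068 at birth and 1979, 1249 and 745 in the adult. Every adult array was below every neonatal array of its tissue, and adult aorta 1 lay 11.6-fold under the geometric mean of adult aorta 2 and 3. In the valve, Col1a1 fell 7.02-fold (log2 difference -2.81 ± 0.77, SE, n = 3 arrays in each group, limma adjusted p = 0.044). That call held in 3 of 12 fits that each left out 1 array, those without an adult aorta array, and was lost without any 1 of the other 9 (adjusted p from 0.066 to 0.12). Without adult aorta 1 alone its adjusted p was 0.00039, as that array widens the spread shared by all groups. In the aorta the difference was -2.55 ± 0.77 (adjusted p = 0.069), and -1.37 ± 0.34 without adult aorta 1 (adjusted p = 0.025) or -3.20 without adult aorta 3 (adjusted p = 0.038). The other Col1a1 probe set differed by -1.80 ± 0.85 in the aorta (adjusted p = 0.23) and -2.53 ± 0.85 in the valve (adjusted p = 0.083).

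Col1a2, the partner chain of type I, had signals of 29372, 30080 and 33458 in neonatal aorta and 2929, 23146 and 27132 in adult aorta. In the valve it read 15110, 18279 and 15390 at birth and 11872.5, 11036 and 5889 in the adult. The adult arrays were below the neonatal ones in both tissues, with adult aorta 1 far below the rest. The age difference was -1.34 ± 0.66 in the aorta (limma adjusted p = 0.25) and -0.82 ± 0.66 in the valve (adjusted p = 0.47). Leaving out adult aorta 1 gave -0.30 ± 0.27 in the aorta (adjusted p = 0.49), and the valve then passed (adjusted p = 0.04).

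Col3a1, the sole chain of type III collagen, was among the brightest probe sets of every array, at the 98.6th percentile or above. It read 32169, 34768 and 34654 in neonatal aorta, 8531, 31275 and 37723 in adult aorta, 15548, 19851 and 16291 in neonatal valve and 15596.5, 14678 and 12925 in adult valve. The adult arrays overlapped the neonatal ones in both tissues. Its age difference was -0.65 ± 0.43 in the aorta (95% interval -1.59 to 0.29, limma adjusted p = 0.4) and -0.26 ± 0.43 in the valve (95% interval -1.19 to 0.68, adjusted p = 0.75). The aorta value was 0.021 ± 0.16 with adult aorta 1 left out. The intervals do not show that Col3a1 was the same at both ages.

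**Figure D1:**
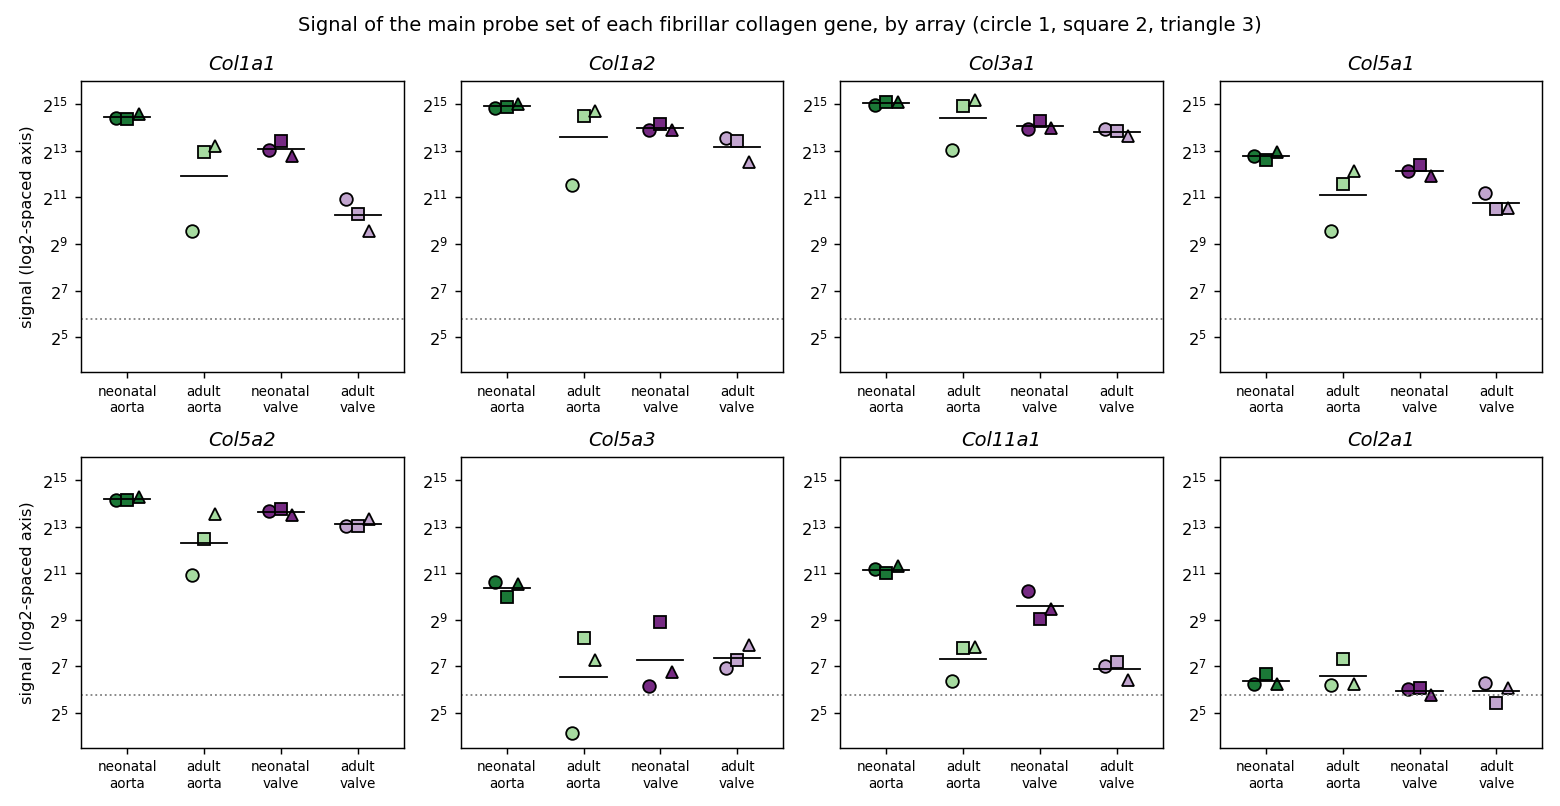
Signal of the main probe set of each gene on each of the 12 arrays, on a log2-spaced axis, with the geometric mean of each group as a bar and the highest signal of an absent control RNA (54.6) as a dotted line. Adult aorta 1 (circle) is the lowest adult aorta array for all 8 genes shown, and Col2a1 lies near the dotted line throughout.

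Of the type V chains, Col5a2 and Col5a3 fell with age in the aorta, and none of the 3 passed in the valve. Col5a2, a chain of the common type V molecule, had signals of 18098.5, 18255 and 19954 in neonatal aorta and 1918, 5666 and 11982 in adult aorta. It fell 3.70-fold there (-1.89 ± 0.48, limma adjusted p = 0.038), and its other probe set fell as well (-1.90 ± 0.45, adjusted p = 0.031). The valve arrays read 13115, 13816 and 11456 at birth and 8279, 8399 and 10217 in the adult, lower on every array but with a difference that did not pass (-0.52 ± 0.48, adjusted p = 0.54). The aorta call held without adult aorta 1 (-1.19, adjusted p = 0.017), without adult aorta 3 (-2.51) and without adult valve 3, and was lost without any 1 of the other 9 arrays (adjusted p from 0.05 to 0.13).

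Col5a1, the chain found in nearly all type V molecules, read 7056, 6331 and 7941 in neonatal aorta, 752, 3041 and 4502 in adult aorta, 4439, 5377 and 3855 in neonatal valve and 2349, 1445 and 1493 in adult valve. No adult array reached a neonatal one of its tissue. The differences were -1.70 ± 0.51 in the aorta (limma adjusted p = 0.07) and -1.39 ± 0.51 in the valve (adjusted p = 0.11). Both passed without adult aorta 1, at -0.94 ± 0.26 (adjusted p = 0.04) and -1.39 ± 0.24 (adjusted p = 0.0036), and the aorta also passed without adult aorta 3 (adjusted p = 0.026).

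Col5a3, a chain of a rarer type V molecule, had signals of 1562, 1001 and 1484 in neonatal aorta and was dim elsewhere. It read 17.6, 300 and 153 in adult aorta, 71.8, 473 and 109 in neonatal valve and 122, 156 and 240 in adult valve, so the last 3 groups overlapped one another. It fell with age in the aorta by 3.83 ± 0.93 on the log2 scale (limma adjusted p = 0.032). The signal of 17.6 lies at the level of an absent RNA, so the 14.2-fold difference this gives is not an exact fold. The difference was -2.63 ± 0.67 without adult aorta 1 (adjusted p = 0.028), and the call was lost without any 1 of the neonatal aorta arrays (adjusted p from 0.083 to 0.11). In the valve the difference was 0.10 ± 0.93 (95% interval -1.93 to 2.14, adjusted p = 0.96).

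Col11a1, the type XI chain, fell in both tissues. It read 2300, 2035 and 2498 in neonatal aorta and 82.2, 223 and 226 in adult aorta, a 14.1-fold fall (-3.82 ± 0.42, limma adjusted p = 0.00067). In the valve it read 1214, 520 and 709 at birth and 130, 145 and 84.4 in the adult, a 6.55-fold fall (-2.71 ± 0.42, adjusted p = 0.0038). The lowest neonatal array of either tissue was above the highest adult array, and the order of levels was neonatal aorta, neonatal valve, then both adult groups, which overlapped. A second probe set fell as well (-4.13 ± 0.47, adjusted p = 0.00083, and -2.86 ± 0.47, adjusted p = 0.0052), to 31.9 to 75.4 in adult aorta and 33.4 to 90.7 in adult valve, in part at the level of an absent RNA, so no fold is given. Both calls held in all 12 fits that left out 1 array, with differences from -4.07 to -3.34 in the aorta and from -2.99 to -2.38 in the valve. The third Col11a1 probe set was too dim to test, at 71.9 to 94.6 in neonatal aorta and 2.15 to 40.5 elsewhere. The second probe set passed the filter on low signals only through neonatal arrays, with 0 arrays of either adult group above the median. The main probe set was above the median on 2 adult aorta and 0 adult valve arrays, so it too needed neonatal arrays to pass. The fall of the second probe set is thus no separate support.

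Col2a1 was dim by its main probe set, below the median signal of 171.944 on every array, and was not tested. Its signals were 75.5, 101 and 76.5 in neonatal aorta, 72.9, 157 and 76.4 in adult aorta, 64.2, 66.6 and 53.9 in neonatal valve and 77.2, 43.0 and 66.8 in adult valve. Neonatal valve lay wholly below neonatal and adult aorta, the other pairs of groups overlapped, and 10 of the 12 arrays were above the 54.6 of an absent control RNA, with 157 the highest. Another Col2a1 probe set was brighter at birth, with 49.5, 442 and 136 in neonatal aorta and 93.1, 354 and 153 in neonatal valve, against 3.59 to 5.95 in adult aorta and 2.67 to 37.1 in adult valve. It was above the median signal on 2 arrays and so was not tested, and with no filter its difference was -4.86 ± 1.03 in the aorta (limma adjusted p = 0.023) and -3.59 ± 1.03 in the valve (adjusted p = 0.071). The adult signals lie at the level of an absent RNA, so no fold is given. Of 9 cartilage markers on the array, 3 to 5 were above the median on neonatal arrays and 0 to 2 on adult arrays, and their part in the Col2a1 and Col11a1 values was not tested.

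Counted together, 3 of the 7 tested genes fell with age in the aorta (Col5a2, Col5a3, Col11a1) and 0 rose, where 5.37% of all 18552 probe sets tested were called lower in the adult. The 7 genes had a median difference of -1.89, against -0.11 over all 10411 genes tested. In 6 of the 7 the adult arrays were all below the neonatal ones, which held for 20.2% of all probe sets. In the valve 2 of 7 fell (Col1a1, Col11a1) and 0 rose, where 5.21% of all probe sets were called lower in the adult. The median was -0.82 against -0.05, and 5 of 7 genes did not overlap, against 18.5% of all probe sets. With adult aorta 1 left out the counts were 5 of 7 in the aorta, against 8.23% of all probe sets, and 4 of 7 in the valve, against 9.09%. The members were chosen with earlier results of these data known, and Col11a1 needed neonatal arrays to pass the filter. The counts and shares are thus a description.

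Adult aorta 1 was the lowest adult aorta array for all 7 tested genes, by 2.73-fold for Col11a1 to 12.2-fold for Col5a3 below the geometric mean of the other adult aorta arrays. The part of the muscle and epithelium RNA on it was not tested, and the falls of Col5a2, Col5a3 and Col11a1 passed without it. Cardiac muscle markers also moved with age: their sum was 49355 to 79080 on neonatal aorta, 1519 to 31087 on adult aorta, 120878 to 137411 on neonatal valve and 6170 to 115721 on adult valve arrays. The 31087 was on adult aorta 1, where Myl3 alone read 29461.5. There 5 of 12 cardiac markers were above the median, and Myh6 read 6.63 and Tnnt2 107. Adipocyte markers summed to 22780 to 44389 on neonatal and 5695 to 68654 on adult aorta arrays. Fibroblast markers, 8 of 8 above the median on all valve arrays, summed to 33805 to 46138 at birth and 63478 to 84107 in the adult valve, and to 49190 to 57485 over both aorta groups. Their median log2 signals overlapped between the valve ages, at 11.5 to 12.7 at birth and 12.5 to 12.9 in the adult. Tcf21, on the same list, was lower in adult valve, at 297 to 404 against 838 to 1204. Smooth muscle markers summed to 34518 to 49811 on neonatal aorta arrays and to 120882 and 156488 on adult aorta 2 and 3. They summed to 14468 to 21799 in neonatal and 11068 to 69781 in adult valve, and endothelial markers to 8404 to 11823 and 11675 to 36026 there. The part of these cells and tissues in the age differences was not tested. The 2 arrays lacking control RNAs were both neonatal aorta. A fit with them as a block left neonatal aorta 1 alone to estimate that group, so its calls are not given.

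No gene passed the test that its age difference was itself different in valve and aorta, where 0.0593% of all probe sets passed. Col5a3 had the widest gap, 3.93 ± 1.31 (limma unadjusted p = 0.012, adjusted p = 0.28), and was the 1 gene with an unadjusted p under 0.05. The gap was 1.37 ± 0.68 for Col5a2 and 1.11 ± 0.59 for Col11a1. So a fall seen in one tissue, such as that of Col5a3 in the aorta, was not shown to be greater there.

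**Figure D2:**
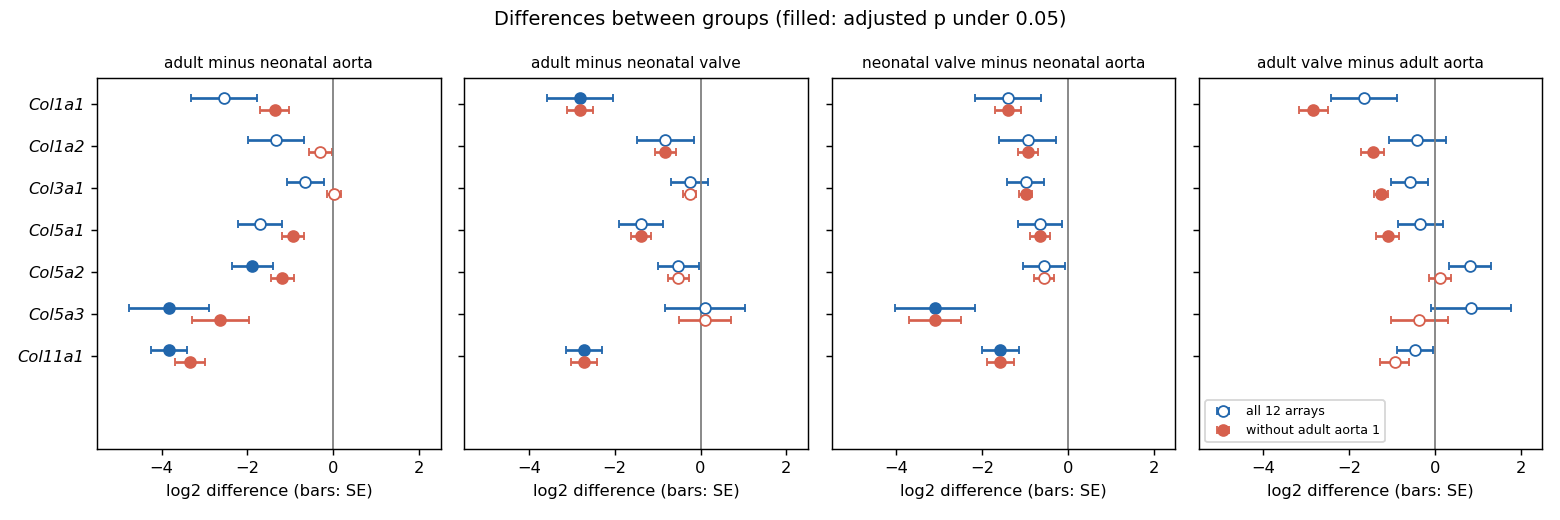
Log2 difference of each of the 7 tested genes in the 4 comparisons between groups, with standard errors as bars, from all 12 arrays (blue) and without adult aorta 1 (red). Filled points passed at an adjusted p under 0.05: Col11a1 is filled in both age comparisons in both fits, and Col3a1 in neither age comparison.

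Setting each gene against Col3a1 on the same array compares changes without the array's overall scale, and says nothing on which gene is more abundant. Col3a1 lay near the top of the range, at 32169 where the highest signal of neonatal aorta 1 was 36240. On neonatal valve 1 it read 15548, where the highest signal was 20693. Whether signals that high are compressed was not tested, nor was the part of this in the ratios and in the age differences of Col3a1 and Col1a2. The log2 ratio of Col1a1 to Col3a1 was lower in the adult by 1.90 in the aorta (-0.58 ± 0.11, SD, n = 3, at birth and -2.48 ± 0.88 in the adult) and by 2.56, or 5.89-fold, in the valve (-0.99 ± 0.18 and -3.55 ± 0.57). The groups did not overlap in either tissue (exact two-sided permutation p = 0.1 in each, the smallest possible with 3 against 3, so the design cannot reach 0.05). The aorta change was -1.39 without adult aorta 1. The partner chain Col1a2 changed less against Col3a1, by -0.69 in the aorta (-0.32 without adult aorta 1) and -0.57 in the valve.

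Among the minor chains, the ratio of Col5a1 to Col3a1 was lower in the adult by 1.05 in the aorta and 1.14 in the valve. That of Col11a1 was lower by 3.17 and 2.46, with no overlap of groups in either tissue for both genes (exact permutation p = 0.1 each). The ratio of Col5a2 was lower by 1.24 in the aorta and did not separate in the valve (-0.26, exact p = 0.3), and in the adult it was 2.65-fold higher in valve than in aorta with no overlap. That of Col5a3 was lower by 3.18 in the aorta and overlapped in the valve (0.36, exact p = 0.7). In all, 24 such ratio comparisons were computed, and none could pass an adjustment.

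**Figure D3:**
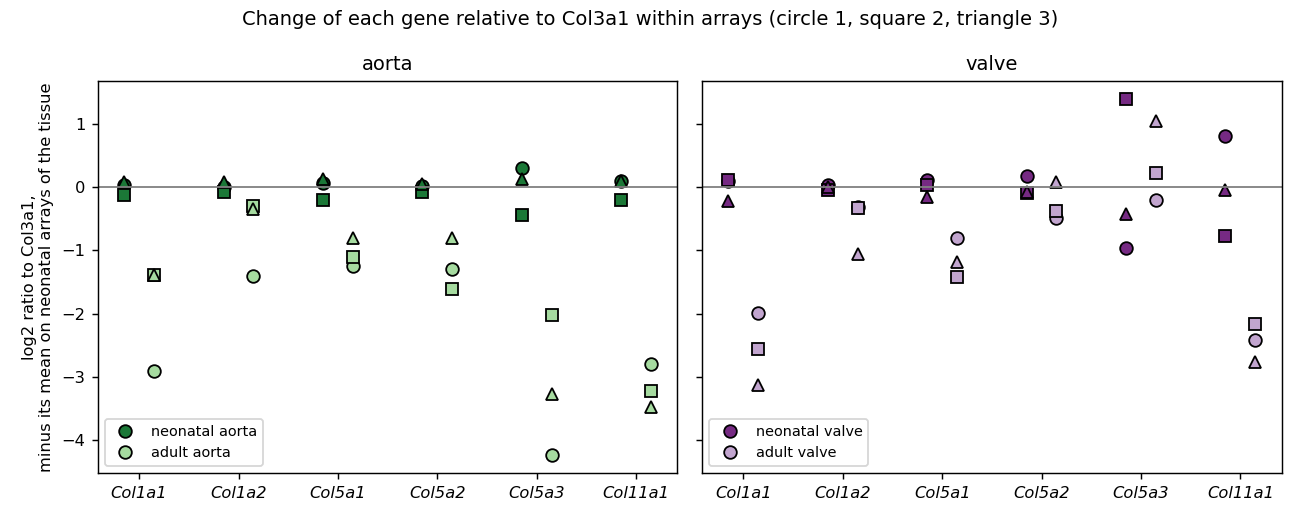
Log2 ratio of each gene to Col3a1 on the same array, minus its mean on the neonatal arrays of that tissue, for aorta (left) and valve (right). Adult arrays lie below the neonatal ones for Col1a1, Col1a2, Col5a1 and Col11a1 in both tissues, and for Col5a2 and Col5a3 in the aorta.

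At birth, the main probe sets of all 7 tested genes were lower in valve than in aorta with no overlap of arrays, where 33.5% of all probe sets were. The arrays did overlap by the other Col5a1 probe set (-0.16 ± 0.56) and by the second Col11a1 probe set. The beta-actin 3' to 5' ratio also separated valve from aorta, and its part in the tissue differences was not tested. With quantile normalization the Col5a2 difference turned to 0.063. Only Col5a3 and Col11a1 passed, 2 of 7, where 19.3% of all probe sets were called lower in neonatal valve. Col5a3 was 8.56-fold lower (-3.10 ± 0.93, limma adjusted p = 0.025) and Col11a1 2.97-fold lower (-1.57 ± 0.42, adjusted p = 0.015), while the second Col11a1 probe set differed by -0.98 ± 0.47 (adjusted p = 0.13). The Col5a3 call was lost without any 1 neonatal aorta array and without neonatal valve 1 or 3 (adjusted p from 0.052 to 0.098). The Col11a1 call was lost without neonatal aorta 3 (adjusted p = 0.054) or neonatal valve 2 (adjusted p = 0.059). A fit with the arrays lacking control RNAs as a block left neonatal aorta 1 alone for its group, so it cannot judge either call. Valve arrays had lower median signals, and centring each array on its median moved every difference here up by 0.33 and left Col11a1 at -1.24 (adjusted p = 0.052).

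The main probe sets of the type I and III chains did not pass at birth. They differed for Col1a1 by -1.39 ± 0.77 (limma adjusted p = 0.19), while its other probe set did pass (-4.21 ± 0.85, adjusted p = 0.0036), for Col1a2 by -0.93 ± 0.66 (adjusted p = 0.31) and for Col3a1 by -0.98 ± 0.43 (adjusted p = 0.1). Col5a1 differed by -0.65 ± 0.51 and Col5a2 by -0.56 ± 0.48. Without adult aorta 1, which narrows the shared spread, 6 of 7 passed and Col5a2 did not, against 23.1% of all probe sets.

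In the adult, none of the 7 main probe sets passed between valve and aorta with limma, where 37.1% of all probe sets did in either direction, and 0 had an unadjusted p under 0.05. The nearest was Col1a1 (-1.66 ± 0.77, adjusted p = 0.11), and Col5a2 was 0.82 ± 0.48 higher in valve (adjusted p = 0.2). Every gene's arrays overlapped between the groups. Of all probe sets, 23.2% lay wholly lower in valve, and those wholly higher are not counted in that share. Without adult aorta 1, 4 of 7 were called lower in adult valve, against 21.1% of all probe sets: Col1a1 (-2.84), Col1a2 (-1.45), Col3a1 (-1.26) and Col5a1 (-1.11), with adjusted p from 0.00033 to 0.0084. Without adult aorta 3, Col5a2 alone passed (1.44, adjusted p = 0.011).

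The Col1a1 probe sets disagreed on the size of the tissue difference. The other probe set read 26760, 27820.5 and 29043 in neonatal aorta, 1287, 17643 and 22599 in adult aorta, 1339, 2506 and 1019 in neonatal valve and 335, 191 and 274 in adult valve. By it, Col1a1 was 18.5-fold lower in valve at birth (-4.21 ± 0.85, limma adjusted p = 0.0036) and 30.8-fold lower in the adult (-4.94 ± 0.85, adjusted p = 0.0013), where the main probe set gave 2.62-fold and 3.16-fold and did not pass. The ratio of main to other probe set was at most 0.842 in the aorta and at least 2.72 in the valve, with no overlap. The beta-actin 3' to 5' ratio separated the same arrays, and its part in the disagreement was not tested. For Col1a2, Col5a1 and Col5a2 the probe sets of a gene gave the same calls in every comparison.

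**Figure D4:**
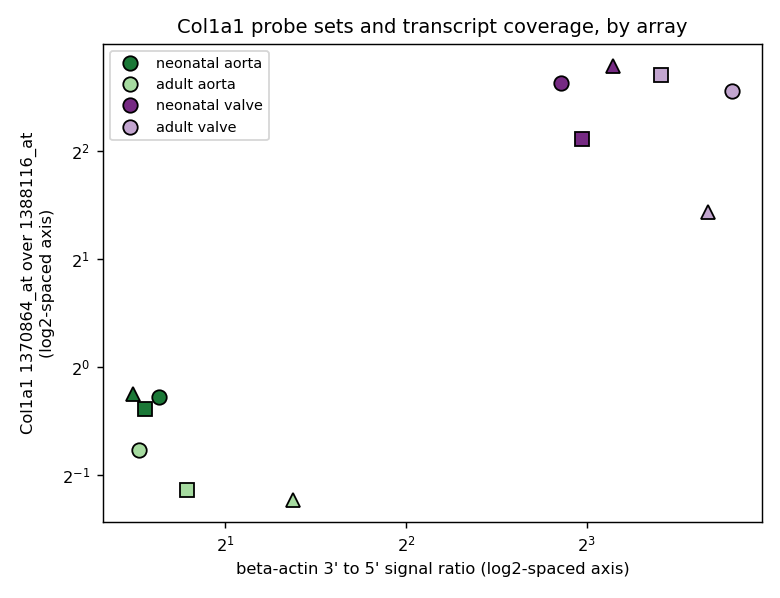
Ratio of the 2 Col1a1 probe sets on each array against the beta-actin 3' to 5' signal ratio, both on log2-spaced axes. The 6 aorta arrays lie at the lower left (Col1a1 ratio 0.425 to 0.842) and the 6 valve arrays at the upper right (2.72 to 6.94).

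Across the 12 arrays the 7 tested genes varied together, with Pearson r from 0.621 (Col3a1 with Col11a1) to 0.965 (Col1a1 with Col5a1) over 21 pairs. After each group's mean was taken out, r ran from 0.275 for Col5a3 with Col11a1 to 0.989 for Col1a1 with Col1a2. The points share arrays and their RNA, adult aorta 1 included, so these values are a description. Col3a1 and Col5a2, which are neighbours on chromosome 9 with 0 genes between them in the RefSeq annotation, had r of 0.654, and 0.918 after the group means.

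The genes whose log2 signals were most like those of Col1a1 over the 12 arrays, among 10404 others, were Col4a1 (r = 0.987) and Col4a2 (0.977), which encode basement membrane collagen, then Adamts12 (0.957), Mmp14 (0.950) and Rtl6 (0.949). For Col3a1 they were Loxl1 (0.974), a cross-linking enzyme, Olfml2b (0.958), Adamts10 (0.958), Fbn1 (0.955), the fibrillin of adult microfibrils, and Sparc (0.945). For Col11a1 they were Grb10 (0.968), Cd276 (0.967), Mfap2 (0.963), Cthrc1 (0.962) and Hmgn2 (0.954). The dim Col2a1 probe set was closest to Mlxipl (0.902), Atn1 (0.879), Slc25a1 (0.866), Pllp (0.859) and Tinf2 (0.851). All 12 arrays enter these values, so they share the differences between the groups.

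Genes that make and process collagen had more falls with age in the aorta than in the valve by count, a contrast that was not tested. Of 19 tested genes for synthesis, folding and processing, 5 fell and 0 rose in the aorta, and 1 fell and 0 rose in the valve, where 5.37% and 5.21% of all probe sets were called lower in the adult. The medians were -0.76 and -0.09 against -0.11 and -0.05 over all genes. P4ha3, a subunit of the prolyl hydroxylase that stabilises the triple helix, fell in the aorta (-5.21 ± 0.34, limma adjusted p = 1e-04), to an adult mean of 64.2 near the level of an absent RNA, so no fold is given, and fell 5.84-fold in the valve (-2.55 ± 0.34, adjusted p = 0.0019). Pcolce, which speeds the removal of the C-terminal propeptide, fell 5.80-fold in the aorta (-2.54 ± 0.32, adjusted p = 0.0014) and differed by -0.53 ± 0.32 in the valve (adjusted p = 0.32). Ppib, a cyclophilin of collagen folding, was 2.26-fold lower in neonatal valve than in neonatal aorta (adjusted p = 0.0022). Mia3, which helps export procollagen from the endoplasmic reticulum, was 1.84-fold higher in adult valve than in adult aorta (adjusted p = 0.0061).

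Proteins that cross-link or coat fibrils were higher in the adult valve where they passed. Of 16 tested, 3 rose and 0 fell in the valve with age, where 4% of all probe sets were called higher in the adult, and 0 rose and 2 fell in the aorta, with medians of 0.25 and -0.48. Prelp, a leucine-rich proteoglycan that anchors matrix, rose 13.9-fold in the valve (3.79 ± 0.69, limma adjusted p = 0.0084). Comp, which binds several fibril collagens, rose 10.2-fold (3.34 ± 0.60, adjusted p = 0.0081), and Dcn, the small proteoglycan decorin, rose 2.00-fold (1.00 ± 0.19, adjusted p = 0.011). Thbs2, a thrombospondin that affects fibril shape, fell in the aorta (-2.07 ± 0.34, adjusted p = 0.0054). In fits without adult aorta 1, 2 rose and 4 fell in the aorta and 5 rose and 1 fell in the valve.

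Collagens that sit on the surface of fibrils fell with age where they passed, 3 of 8 tested in the aorta and 3 of 8 in the valve, against 5.37% and 5.21% of all probe sets, with 0 rising and medians of -1.44 and -0.88. Col12a1, a type XII chain, fell 10.9-fold in the aorta (-3.44 ± 0.44, limma adjusted p = 0.0015) and differed by -1.47 ± 0.44 in the valve (adjusted p = 0.059). Col16a1 fell 4.89-fold in the aorta (adjusted p = 4e-04) and 1.74-fold in the valve (adjusted p = 0.044). Col9a1, a type IX chain of cartilage fibrils, fell in the aorta (-3.22 ± 0.76, adjusted p = 0.028) and in the valve (-5.21 ± 0.76, adjusted p = 0.0028), to adult means of 24.9 and 16.2 at the level of an absent RNA. It read at most 77.7 on adult arrays, under the median signal of 171.944. Col9a1 thus passed the filter on low signals only through neonatal arrays, and its place in both counts is no separate support.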

How the data were processed

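The authors deposited 1 linear intensity per probe set and array. Expression Console (Affymetrix) and MAS5 are named for this step in the submitters' processing notes, with the version not given in the sources used here. RNA was labelled by in vitro transcription, per the labels' protocols. With 2% cut from either end, mean signals lay between 500.1 and 500.2, as 1 scale factor per array would give. The median signal ran from 133 to 202. The members and gene lists were chosen with earlier results of these data known.

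The 57 control probe sets were left out. Signals under 1 were set to 1 and log2 was taken. Of 31042 probe sets, 18552 with a signal above 171.944 (the median) on at least 3 of 12 arrays were tested. The 4 group means were estimated from all 12 arrays by limma (version 3.58.1, R 4.3.3), leaving 8 residual degrees of freedom, with eBayes variances that follow mean intensity, and 5 contrasts were tested two-sided with Benjamini-Hochberg adjustment over all probe sets tested, at 0.05. The fit was tested on simulated data. Ratios to Col3a1 used exact permutation tests. Up to 4 genes per pathway list, by smallest adjusted p in any contrast, could be named, and those printed were picked from them with values in view. Of the probe sets, 20832 had 1 gene symbol, 436 several and 9831 none. Alternatives were a started log (signal plus 32), no filter, quantile and median scaling, no trend, the replicate number or the missing control RNAs as a block, the mean of a gene's probe sets, groups by the description field, and leaving out each array. Precision is limited by 3 arrays per group.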

Additional observations from a re-analysis of the deposited data

How the results depend on the processing

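Of 735 differences of single genes under other settings, 654 kept direction and side of the threshold, 42 lost a call, 20 gained one and 19 turned direction. The count of genes called (main values 3 in aorta by age, 2 in valve by age, 2 between neonatal tissues, 0 between adult tissues and 0 for the difference of age differences) ran over fits without 1 array from 1 to 5, 1 to 4, 0 to 6, 0 to 4 and 0 to 0. The valve age count was 1 with no filter, with no intensity trend, with the mean of probe sets and with the replicate number as a block, and 0 with groups by description, where the adult tissue count was 2. With the mean of probe sets the adult tissue count was 1. Median centring gave 1 for the neonatal tissues. With the control RNAs as a block, neonatal aorta 1 alone stood for its group. The counts of that fit are thus not given, though its differences are among the 735. The cause of these changes was not tested. Turned directions outside the fits without 1 array were Col5a2 between neonatal tissues (0.063, quantile), Col3a1 (0.022, quantile) and Col5a1 (0.048, centred) between adult tissues, and by description Col5a2 in the valve by age (0.82) and between adult tissues (-0.52). In fits without 1 array the ranges that crossed 0 were -1.05 to 0.021 for Col3a1 in the aorta by age, -0.45 to 0.91 for Col5a3 in the valve by age, and between adult tissues -1.45 to 0.16 for Col1a2, -1.11 to 0.18 for Col5a1 and -0.37 to 1.68 for Col5a3. For the contrast of the age differences, the ranges were -1.45 to 0.39 for Col1a1, -0.52 to 1.09 for Col1a2, -0.28 to 0.80 for Col3a1 and -0.46 to 0.83 for Col5a1.

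Deviations of same-numbered arrays from their group means correlated from -0.31 to 0.24 over 18 pairs, and of others from -0.29 to 0.39. Many of these pairs join a neonatal with an adult array, which cannot share an animal. Whether replicate numbers pair aorta and valve of an age is thus not settled by these ranges. With the replicate number as a block Col1a1 in the valve lost its call (-2.81, limma adjusted p = 0.064), and the other counts were 3, 2, 0 and 0. Median centring moved the median of all genes up by 0.33 between neonatal tissues and by 0.39 between adult tissues, and the share of lower among all calls from 59.3% to 36.9% and from 53.5% to 29.9%. In the valve by age that share moved from 56.6% to 43.4%. Signals under about 54.6 cannot be told from an absent RNA, which limits adult aorta 1 for Col5a3, the adult values of the second Col11a1 probe set, and the other Col2a1 probe sets.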

Other observations

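The other fibrillar collagen genes on the array differed in level, and Col24a1 alone was above the median signal on every neonatal array. Col24a1, a fibrillar chain of developing bone and cornea, read 478, 306 and 355 in neonatal aorta, 568, 11.7 and 84.8 in adult aorta, 895, 763 and 435 in neonatal valve and 72.4, 80.5 and 32.1 in adult valve. Its age difference was -2.18 ± 1.04 in the aorta (limma adjusted p = 0.24) and -3.54 ± 1.04 in the valve (adjusted p = 0.056). Without adult aorta 1, where it was brightest of the adult arrays, both passed (-3.57, adjusted p = 0.011, and -3.54, adjusted p = 0.0053). Adult aorta 1 was also the only adult array above the median signal. Col24a1 thus needed neonatal arrays to pass the filter on low signals, and these falls are no separate support. Col27a1 passed in no comparison, and Col11a2 read 44.8 to 99.6 and was not tested.

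Collagen receptors rose with age in the valve in 2 of 5 tested and fell in 0, where 4% of all probe sets were called higher in the adult. Ddr2, a receptor tyrosine kinase for fibrillar collagen, rose 3.10-fold (1.63 ± 0.39, limma adjusted p = 0.026), and Itga11, an integrin subunit that binds type I collagen, rose 6.91-fold (2.79 ± 0.77, adjusted p = 0.046). In the aorta 0 rose and 0 fell with all 12 arrays. Without adult aorta 1 the same genes passed there as well, Ddr2 (1.11, limma adjusted p = 0.035) and Itga11 (2.65, adjusted p = 0.04). The rise was thus not particular to the valve. Ddr1 was lower in valve than in aorta at birth (-0.90 ± 0.31, adjusted p = 0.047) and in the adult (-1.47 ± 0.31, adjusted p = 0.0044). Of 4 tested proteases that degrade collagen, 1 fell in the aorta with age: Mmp14, a membrane-bound collagenase (2.0 ± 0.36 lower on the log2 scale, adjusted p = 0.009). Ctsk, the lysosomal collagenase cathepsin K, was higher in adult valve than in adult aorta (1.62 ± 0.50, adjusted p = 0.025), and not so called without adult aorta 1 (1.15, adjusted p = 0.073).

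Of 13 tested transcription factors of collagen genes, 1 fell in the aorta with age and 1 rose and 1 fell in the valve, close to the shares of all probe sets called (5.37% lower in the aorta, 4% higher and 5.21% lower in the valve). Smad2, a mediator of TGF-beta signals, fell in both (-0.61 ± 0.16, limma adjusted p = 0.046, and -0.86 ± 0.16, adjusted p = 0.01), and Scx, a tendon factor, rose in the valve (1.45 ± 0.36, adjusted p = 0.032). Nfyc, a subunit of the CCAAT-binding factor, passed in neither age comparison (0.02 ± 0.20 in the aorta and -0.18 ± 0.20 in the valve). Of 3 tested cartilage matrix genes, Acan, which encodes aggrecan, fell in the valve with age (-2.88 ± 0.72, adjusted p = 0.032), and Cytl1, a secreted protein of cartilage, rose 22.2-fold there (4.47 ± 0.57, adjusted p = 0.0015). Acan read 1126, 116 and 848 in neonatal valve and 35.4, 85.7 and 91.4 in adult valve, so neonatal valve 2 was close to the adult arrays.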
